A study of Sus scrofa with 6 samples.

Results

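The 51 genes described here are the chromatin modifiers and histone-related genes that could be read in a comparison of the lines OBGF400 and PK15. OBGF400 is a line of neuroblasts from the pig olfactory bulb per the labels. PK15 is a long-used kidney line of the pig, non-neuronal and of epithelial origin per the labels. The 51 genes were taken by symbol from the platform's probe-to-gene table, out of 6765 genes with a probe set that carries exactly 1 symbol. The symbols begin with HDAC, SIRT, KDM, KMT, SMARC, CHD and a digit, CBX, HMGA, HMGB, HMGN, H2AF, HIST, H3F3, DNMT, EZH or EED. SUZ12 was also asked for, and has no named probe set in that table. The rule used no measured value. Where a gene had several probe sets, the brightest by its mean over the 6 arrays was used. Each line had 3 Affymetrix porcine arrays, and RNA from 9 cultures of each line was combined into these 3 pools. Both lines were untreated and grown with 10% bovine calf serum, penicillin, streptomycin and gentamicin. OBGF400 cells grew in DMEM/F12/HAM, and PK15 cells in minimum essential medium that also held amphotericin B. Medium and line therefore cannot be told apart, and each line is 1 line, so p-values measure the spread between pools and not between animals.

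DNA in the nucleus is wrapped around histones, and the packing decides which genes can be read. Writer enzymes add methyl or acetyl groups to histone tails, erasers such as histone deacetylases and lysine demethylases remove them, and readers bind the marks. Remodelling enzymes of the SWI/SNF, ISWI and CHD families use ATP to slide or evict nucleosomes, and the small high mobility group proteins bend DNA or loosen the fibre. Several of these genes, among them HMGA1, HMGB2, H2AFZ, EZH2 and DNMT1, are known to be abundant in dividing cells. Neural progenitors are known to exchange some SWI/SNF subunits as they become neurons.

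The deposited values are log2 signals, 1 for each probe set and array, and a difference always means OBGF400 minus PK15 on that scale. A gene is called when its adjusted p is under 0.05 (limma over all 6765 genes, Benjamini-Hochberg, two-sided). The lowest value of the table, named the floor here, is 2.13. The labels' cell types were checked against fixed markers. All 5 epithelial markers were at 12.45 to 14.77 in PK15 and at 2.13 to 2.83 in OBGF400. Of 4 measured neural markers UCHL1, MAP2 and NCAM1 were higher in OBGF400, at 12.34, 8.99 and 8.87 there, and STMN1 was lower. Of 5 mesenchymal markers CDH11, PDGFRB, COL1A2 and THY1 were higher in OBGF400, at 13.75, 12.99, 12.82 and 11.14 there. COL3A1 was not called. The name neuroblast is that of the labels, and these neural and mesenchymal readings do not settle it. Of 5 leukocyte markers AIF1, LAPTM5 and SPI1 were higher in PK15 and CD14 in OBGF400, with PTPRC at the floor in both lines. Of 3 endothelial markers CDH5 was higher in PK15. Scaling the arrays on their spiked controls moved the median difference of all genes by 0.82 (hybridization controls) or by -0.85 (dap and thr poly-A controls). A difference smaller than these shifts takes its sign from the scaling.

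Chromatin genes differed in both directions, and the large differences were those of a few genes. Of the 51 genes, 19 were higher in OBGF400, 16 lower and 16 not called. Over all 6765 genes 60.8% were called, 23.9% higher and 36.8% lower, so the share called among the 51 (68.6%) was near the background. The median difference of the 51 was 0.00, as over all genes (-0.00), and their median absolute difference was 0.53 against 0.60. For 39 of the 51 genes the values of the lines did not overlap, against 66.9% of all genes. Scaled on the hybridization controls, 36 were higher and 7 lower, and scaled on the poly-A controls, 5 and 35. Of the chromatin genes called under these scalings 83.7% and 12.5% were higher, against 78.1% and 12.8% of all called genes. Of the 35 genes called as deposited, 18 kept their sign under both control scalings, 7 higher and 11 lower. At least 2-fold differences with a call were found for 16 of the 51, against 35.7% of all genes. Of these 6 were higher, against 13.8% of all genes, and 10 lower, against 22%. Fewer cells with a transcript and less of it per cell cannot be told apart in such bulk RNA.

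**Figure D1:**
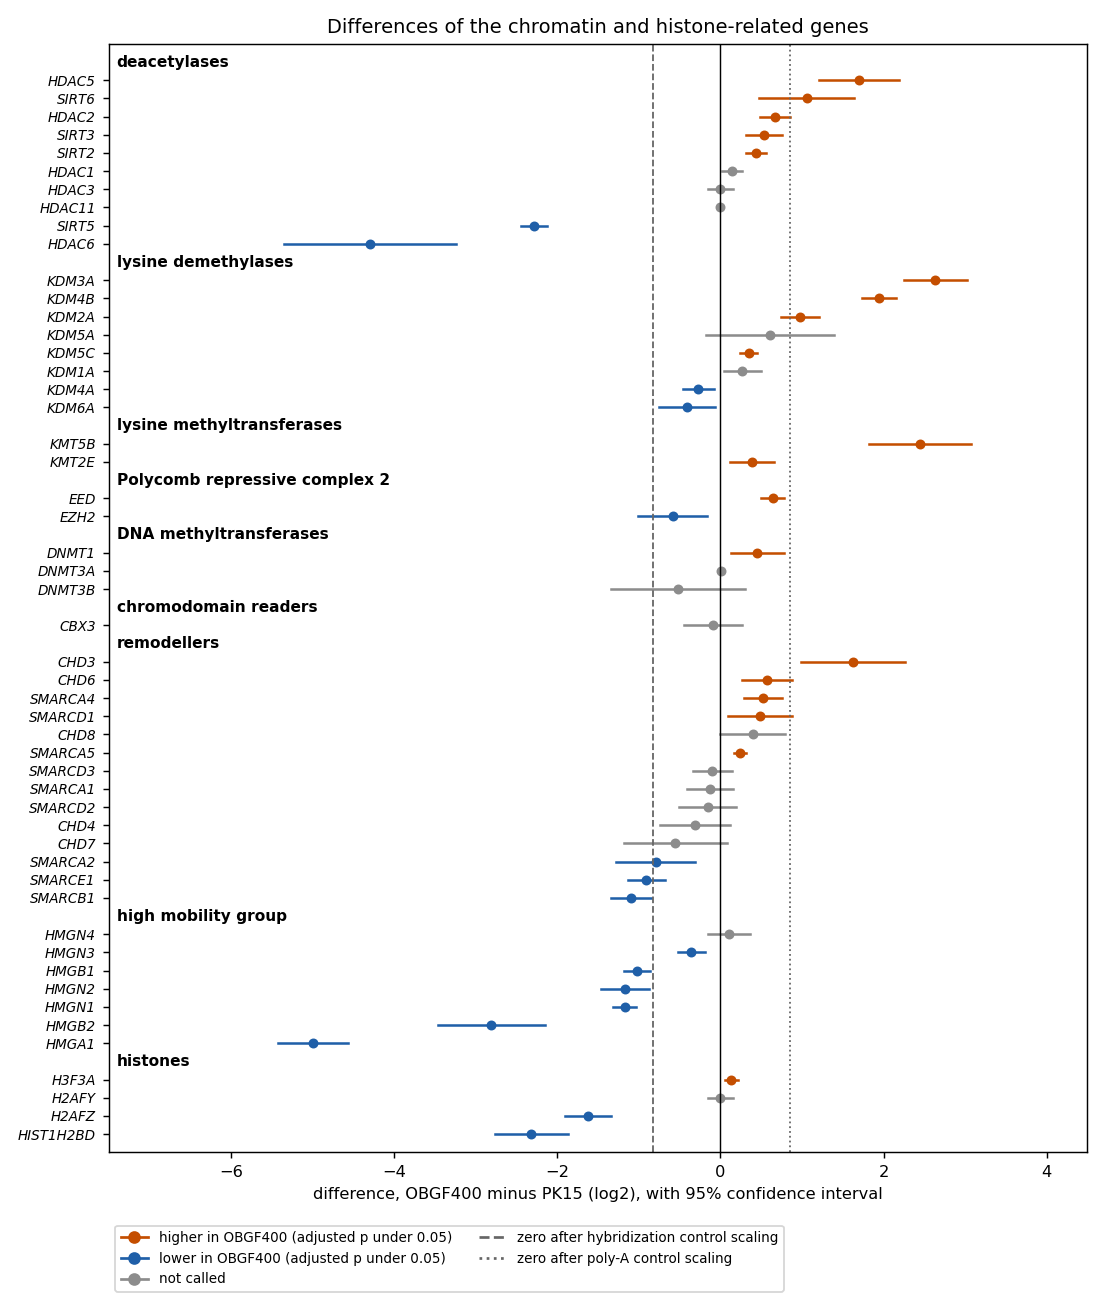
Difference between the lines (log2, x axis) with its 95% confidence interval from limma for each of the 51 genes, grouped by role; colours mark the call, and the vertical dashed and dotted lines mark where 0 would lie after each control scaling. The high mobility group lies on the PK15 side except HMGN4, and 18 of the 35 called genes lie beyond the lines on their own side.

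Of the 7 high mobility group genes measured, 6 were lower in OBGF400, against 36.8% of all genes, and HMGN4 stayed uncalled. The median difference of the 7 was -1.17. HMGN3 (-0.36) was positive under hybridization control scaling (0.47), while the other 5 lower genes kept a negative difference under both control scalings. HMGA1, which binds the minor groove of AT-rich DNA and is known from embryonic and dividing cells (Entrez 100157848), read 4.46 on each OBGF400 array. On the PK15 arrays it read 9.11, 9.65 and 9.60. The lines did not overlap, and the difference of the deposited values was -4.99 (limma, adjusted p = 2.78e-05), or -3.76 with 32 added to the linear values. The 3 OBGF400 values are identical, so they give no precision. They may be a lower limit of that probe set and not a level, which was not tested, so no fold is given.

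HMGB2, a DNA-bending protein of proliferating cells (Entrez 397130), was at 9.36, 10.21 and 9.69 in OBGF400 and at 12.73, 12.45 and 12.51 in PK15. The highest OBGF400 array lay more than 2 units under the lowest PK15 array. The difference was -2.81 ± 0.25 (SE), or 7.01-fold (limma, adjusted p = 0.000593). Its widely expressed relative HMGB1 (Entrez 445521), which also acts as a danger signal outside cells, gave the smaller difference of -1.02 from 13.67 ± 0.10 against 14.70 ± 0.06 (SD, n = 3). Within each array HMGB2 minus HMGB1 differed between the lines by -1.78, with SDs over arrays of 0.33 and 0.20 and no overlap. No scaling of whole arrays can change this quantity. This pair and those below were chosen after values were seen, so their lack of overlap is no test. The 3 HMGB1 probe sets above the floor were all lower (-1.02 to -0.67).

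The nucleosome-binding proteins HMGN1 and HMGN2, which loosen the chromatin fibre, fell alike. HMGN1 (Entrez 100625838) read 12.57, 12.68 and 12.52 in OBGF400 and 13.82, 13.75 and 13.71 in PK15. HMGN2 (Entrez 100524500) read 12.18, 12.58 and 12.36 against 13.52, 13.59 and 13.51. Both differed by -1.17, a 2.25-fold lower signal (limma, adjusted p = 7.41e-05 and 0.000782). HMGN3, at 12.25 ± 0.07 against 12.61 ± 0.09 (SD, n = 3), differed less. HMGN4 read 7.49, 7.31 and 7.14 against 7.23, 7.20 and 7.19, and these values overlapped. HMGN3 minus HMGN1 within the arrays differed by 0.81 between the lines without overlap. After hybridization control scaling HMGB1 (-0.20) and HMGN2 (-0.35) were no longer called. HMGB1 and the HMGN genes have many retrocopies in mammalian genomes, and signal from such copies was not tested.

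Of 4 histone genes, 2 were lower in OBGF400, 1 was higher and 1 was not called, against 36.8% lower and 23.9% higher over all genes. H2AFZ, the variant H2A.Z found at promoters (Entrez 100141311), read 12.32, 12.67 and 12.55 in OBGF400 and 14.10, 14.23 and 14.08 in PK15. The lines were well apart, with a difference of -1.62 ± 0.11 (SE), 3.08-fold (limma, adjusted p = 0.000228). H2AFY, the variant macroH2A linked to silent chromatin, did not pass the test. It read 12.07, 12.14 and 12.01 against 12.09, 11.99 and 12.15, which overlapped, with a 95% interval of the difference from -0.16 to 0.15. H2AFY minus H2AFZ within the arrays differed by 1.62 between the lines without overlap.

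The canonical histone gene HIST1H2BD (Entrez 100157327) read 5.72, 5.27 and 5.63 in OBGF400 and 7.99, 7.93 and 7.64 in PK15. All OBGF400 arrays lay below all PK15 arrays, by -2.32 ± 0.17 (SE), or 4.98-fold (limma, adjusted p = 0.000316). With 32 added to the linear values the difference was -1.74. Its other probe set was at the floor on all arrays. Canonical histone genes are near-identical copies of each other and their main transcripts lack a poly-A tail, so this value is uncertain as a measure of the single gene. H3F3A, which encodes the replacement histone H3.3 that is laid down outside S phase, was higher by 0.13 (limma, adjusted p = 0.0147) and at -0.72 under poly-A control scaling. That call ended when OBGF400 replicate 1 (0.13) or 2 (0.13) was left out, and with median centring (0.10).

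**Figure D2:**
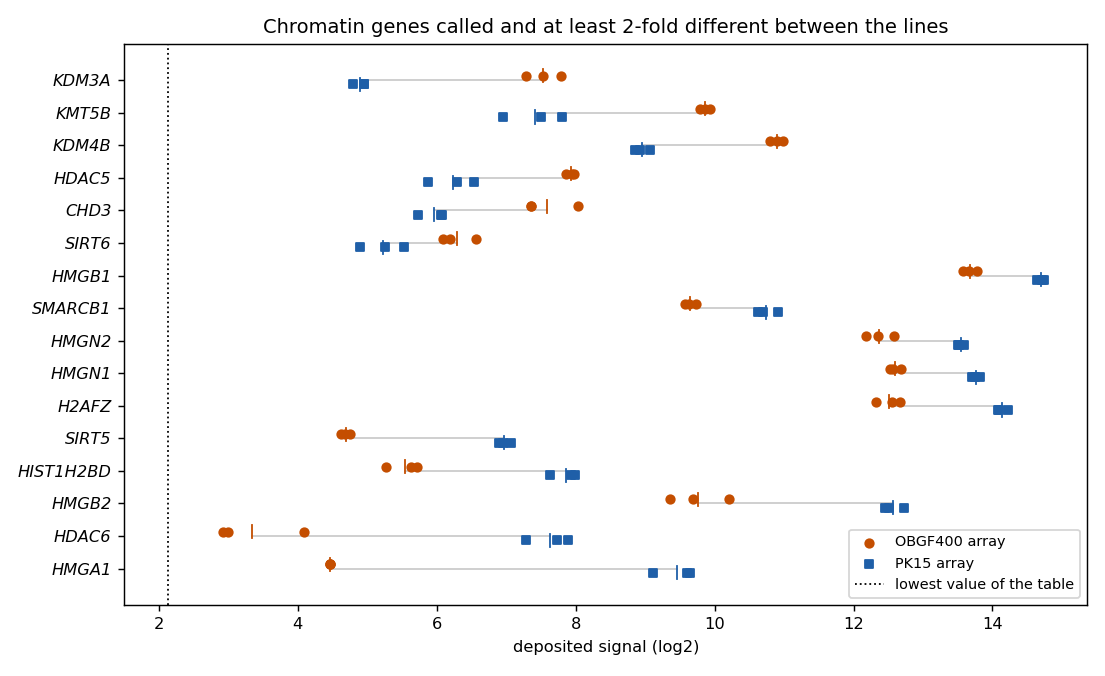
Deposited log2 signal (x axis) on each array of the 16 chromatin genes that were called and at least 2-fold different, with orange circles for OBGF400, blue squares for PK15, ticks at the group means and a dotted line at the floor. No gene has overlapping groups, and HDAC6 and HMGA1 come closest to the floor in OBGF400.

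Against 23.9% higher and 36.8% lower over all genes, 5 of 10 deacetylase genes were higher in OBGF400, 2 lower and 3 not called. HDAC6, a mostly cytoplasmic enzyme that deacetylates tubulin (Entrez 100621798), was the lowest of them relative to PK15. It read 3.00, 4.09 and 2.93 in OBGF400 and 7.28, 7.89 and 7.72 in PK15. The OBGF400 values lie near the floor of 2.13, so the size of the fold is uncertain. The difference was -4.29 ± 0.40 (SE), or 19.6-fold (limma, adjusted p = 0.000699), and -2.44 with 32 added to the linear values. Of the 51 genes it had the most probe sets, and 6 of its 7 probe sets were lower, by -4.30 to -2.50, while the remaining one lay at the floor in both lines.

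HDAC5, a class IIa deacetylase that shuttles between nucleus and cytoplasm (Entrez 100515165), went the other way. It read 7.86, 7.95 and 7.98 in OBGF400 and 5.87, 6.53 and 6.29 in PK15, and the lines did not overlap. The difference was 1.70 ± 0.19 (SE), or 3.25-fold (limma, adjusted p = 0.00124), and it stayed positive under poly-A control scaling (0.85). With 32 added to the linear values it was 1.36. Of the nuclear class I enzymes measured, only HDAC2 was called (limma, adjusted p = 0.000994). HDAC2 was at 11.20 ± 0.07 against 10.53 ± 0.10 (SD, n = 3), higher by 0.67 but at -0.18 under poly-A control scaling. HDAC1, its partner in the NuRD, Sin3 and CoREST complexes, read 9.88, 9.90 and 9.84 against 9.83, 9.69 and 9.68. These values did not overlap, and the difference of 0.14 was not called (limma, adjusted p = 0.0566). HDAC2 minus HDAC1 within the arrays differed by 0.53, with SDs of 0.05 and 0.06 and no overlap. HDAC3 was not called, with a 95% interval of the difference from -0.16 to 0.16. HDAC11, also not called, read the identical 3.02 on 5 of 6 arrays. Such a value may be a background reading of the probe set, so it bounds no difference.

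The sirtuins, deacylases that consume NAD, also split. SIRT5, a mitochondrial enzyme that removes succinyl and malonyl groups (Entrez 100125966), read 4.68, 4.63 and 4.75 in OBGF400 and 7.07, 6.95 and 6.90 in PK15. This tight separation gave -2.29 ± 0.06 (SE), or 4.88-fold lower (limma, adjusted p = 1.49e-05), and -1.45 with 32 added to the linear values. SIRT6, a nuclear sirtuin of DNA repair and telomeric chromatin (Entrez 100126274), read 6.19, 6.10 and 6.57 against 4.90, 5.53 and 5.25. It was higher by 1.06, or by 0.66 with 32 added to the linear values. Under poly-A control scaling it was no longer called (0.20; limma, adjusted p = 0.360). The mitochondrial SIRT3 (0.53) and the tubulin deacetylase SIRT2 (0.44) were higher as deposited and at -0.32 and -0.42 under poly-A control scaling.

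The demethylases KDM3A and KDM4B had, with KMT5B, the largest rises of the 51 genes. Of 8 lysine demethylase genes, 4 were higher in OBGF400, 2 lower and 2 not called, against 23.9% higher and 36.8% lower over all genes. The values of the lines were separate for each of the 8, against 66.9% of all genes. KDM3A, which removes methyl groups from lysine 9 of histone H3 and is known to be induced by low oxygen (Entrez 100517522), read 7.28, 7.53 and 7.78 in OBGF400. In PK15 it read 4.95, 4.95 and 4.80. The difference was 2.63 ± 0.14 (SE), or 6.20-fold (limma, adjusted p = 0.000133), and its second probe set gave 3.92. With 32 added to the linear values the first probe set gave 1.81.

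KDM4B, which acts on the same residue (Entrez 100738761), read 10.99, 10.89 and 10.80 in OBGF400 and 9.06, 8.93 and 8.85 in PK15. The difference of 1.94 ± 0.08 (SE), or 3.85-fold, exceeded the spread between arrays many times over (limma, adjusted p = 5.16e-05). Its close relative KDM4A was lower as deposited (-0.27) and at 0.55 under hybridization control scaling, and KDM4B minus KDM4A within the arrays differed by 2.21 without overlap. Leaving out OBGF400 replicate 3 (-0.29) or any PK15 replicate (-0.26, -0.28 or -0.27) ended the KDM4A call. KDM2A, which acts on lysine 36 of histone H3 at CpG islands, was at 8.64 ± 0.11 against 7.67 ± 0.11 (SD, n = 3). It was higher by 0.97 by this probe set and by 2.62 by its other one. Under poly-A control scaling the call of the first was lost (0.12; limma, adjusted p = 0.596).

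KDM5A and KDM5C erase methylation of lysine 4 of histone H3. KDM5C was higher by 0.35 and at -0.51 under poly-A control scaling. KDM5A read 7.34, 7.20 and 7.11 in OBGF400 and 6.02, 6.77 and 7.04 in PK15, where the PK15 arrays spread over about 1 unit. This gave 0.61 without a call (limma, adjusted p = 0.150), and -0.25 without a call under poly-A control scaling, while its dimmer probe set was called at 1.69 and the mean of both at 1.15. KDM1A, the flavin-dependent demethylase of the CoREST complex, read 9.18, 9.32 and 9.32 against 8.84, 9.09 and 9.07. These did not overlap, but the difference of 0.27 lay just outside the threshold (limma, adjusted p = 0.0502). KDM6A, which erases the Polycomb mark, lay just inside it at -0.41 (limma, adjusted p = 0.0474) and at 0.41 under hybridization control scaling. Leaving out any OBGF400 replicate (-0.41, -0.35 or -0.47), or PK15 replicate 2 (-0.36) or 3 (-0.35), ended the KDM6A call.

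Both measured KMT genes were higher in OBGF400, against 23.9% of all genes. KMT5B, which methylates lysine 20 of histone H4 in heterochromatin (Entrez 100521358), read 9.86, 9.79 and 9.93 in OBGF400 and 7.49, 7.80 and 6.96 in PK15. The PK15 arrays varied more, and the difference was 2.44 ± 0.24 (SE), or 5.44-fold (limma, adjusted p = 0.000813). Of its 5 probe sets 3 were higher, by 2.44 to 4.39. KMT2E, a chromatin regulator of the mixed-lineage leukemia family, was higher by 0.39, at -0.46 under poly-A control scaling and at 0.05 for the mean of its 4 probe sets. Leaving out replicate 2 or 3 of OBGF400 (0.40 and 0.32) or of PK15 (0.31 and 0.42) ended its call.

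EED and EZH2 are core subunits of Polycomb repressive complex 2, which methylates lysine 27 of histone H3, EZH2 as the enzyme and EED as the reader of the mark. They differed in opposite directions. EED read 10.61, 10.61 and 10.67 in OBGF400 and 10.03, 9.89 and 10.04 in PK15, higher by 0.64 ± 0.05 (SE; limma, adjusted p = 0.000463) and at -0.21 under poly-A control scaling. EZH2 read 7.85, 8.37 and 8.06 against 8.55, 8.72 and 8.77, lower by -0.58 (limma, adjusted p = 0.0290) and at 0.24 under hybridization control scaling. Within the arrays EED minus EZH2 differed by 1.23 between the lines, with SDs of 0.27 and 0.16 and no overlap. No scaling of whole arrays can change this value, but the pair was chosen after values were seen and was not tested. Leaving out OBGF400 replicate 1 (-0.46) or 3 (-0.57), or any PK15 replicate (-0.65, -0.56 or -0.54), ended the EZH2 call.

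The maintenance DNA methyltransferase DNMT1, which copies methylation onto new DNA strands, read 11.73, 11.98 and 12.03 in OBGF400 and 11.53, 11.28 and 11.57 in PK15. It was higher by 0.45 (limma, adjusted p = 0.0303) and at -0.40 under poly-A control scaling, with 1 of its 4 probe sets called. Its call ended when OBGF400 replicate 2 (0.42) or 3 (0.40), or any PK15 replicate (0.49, 0.36 or 0.51), was left out. The de novo enzymes were not called. DNMT3A read 5.95, 5.93 and 5.93 in OBGF400 and 5.93 on each PK15 array. Its value was identical on 5 of 6 arrays and may be a background reading of the probe set, which was not tested. DNMT3B was at 2.97 ± 0.14 against 3.49 ± 0.55 (SD, n = 3). CBX3, the heterochromatin protein HP1 gamma that reads methylated lysine 9, was the one chromodomain reader measured. It read 11.69, 11.91 and 11.79 against 12.09, 11.65 and 11.91. The values overlapped and it was not called, with a 95% interval of the difference from -0.45 to 0.27.

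Of 14 remodeller genes (SMARC and CHD), 5 were higher in OBGF400, 3 lower and 6 not called, against 23.9% higher and 36.8% lower over all genes. Subunits of the SWI/SNF (BAF) complex moved unequally. SMARCB1, a core subunit (Entrez 100154735), read 9.64, 9.74 and 9.57 in OBGF400 and 10.63, 10.91 and 10.69 in PK15. The lines stood apart by -1.09 ± 0.09 (SE), or 2.13-fold (limma, adjusted p = 0.000498). SMARCE1, a subunit with a high mobility group domain, was lower by -0.91, from 10.11 ± 0.07 against 11.01 ± 0.14 (SD, n = 3). Under hybridization control scaling both kept the sign without a call (-0.27 and -0.08).

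The alternative ATPases of the complex, SMARCA4 (BRG1) and SMARCA2 (BRM), went opposite ways as deposited. SMARCA4 read 11.39, 11.43 and 11.42 in OBGF400 and 10.71, 10.95 and 11.01 in PK15, higher by 0.52 ± 0.09 (SE; limma, adjusted p = 0.00596) and at -0.33 under poly-A control scaling. SMARCA2 read 9.32, 8.92 and 8.72 against 9.81, 9.64 and 9.90, lower by -0.79 (limma, adjusted p = 0.0169) and at 0.03 under hybridization control scaling. SMARCA4 minus SMARCA2 within the arrays differed by 1.32 between the lines, with SDs of 0.33 and 0.21 and no overlap, and SMARCA4 minus SMARCB1 by 1.62. Leaving out OBGF400 replicate 2 (-0.76) or PK15 replicate 1 (-0.78) or 3 (-0.74) ended the SMARCA2 call. Both SMARCA4 probe sets were higher, though the table gives them different Entrez numbers.

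Of the 3 alternative SMARCD subunits, which link the complex to transcription factors, SMARCD1 was higher by 0.48 (limma, adjusted p = 0.0428) and at -0.37 under poly-A control scaling. That call ended when OBGF400 replicate 1 (0.49) or any PK15 replicate (0.48, 0.49 or 0.48) was left out. SMARCD2 (-0.15) and SMARCD3 (-0.10), the latter known from mature neurons and muscle, were not called. SMARCA5, the ISWI ATPase, was higher by 0.24 on small spreads of 0.03 and 0.04 (SD, n = 3), with all 3 probe sets called, and at -0.61 under poly-A control scaling. SMARCA1, the other ISWI ATPase, known from differentiated neurons, was not called (-0.13; limma, adjusted p = 0.385). It read 2.48, 2.13 and 2.16 in PK15 and lay at the floor on the OBGF400 arrays. These values are at or near the floor in both lines, so they bound no difference.

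CHD3, an ATPase of the NuRD complex (Entrez 100188906), read 8.04, 7.35 and 7.35 in OBGF400 and 5.74, 6.06 and 6.08 in PK15. The lines did not overlap, and the difference was 1.63 ± 0.24 (SE), or 3.09-fold (limma, adjusted p = 0.00368). With 32 added to the linear values it was 1.25. CHD4, the alternative NuRD ATPase, read 9.57, 9.22 and 9.40 against 9.44, 9.90 and 9.80, which overlapped, and was not called. CHD3 minus CHD4 within the arrays differed by 1.94 between the lines, with SDs of 0.26 and 0.08 and no overlap. CHD6 was higher by 0.57 and at -0.28 under poly-A control scaling. CHD7 (-0.55) and CHD8 (0.39), which are known as neurodevelopmental disease genes, were not called, and both changed sign under a control scaling (0.27 and -0.46).

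Of the 51 genes, 21 had more than 1 probe set. At least 1 probe set was called for 14 of them, and none of these had called probe sets of both signs. Over all 23999 probe sets the share called was 41.9%. In that fit over probe sets KDM6A and SMARCD1 were not called. For 7 genes 2 or more probe sets were called, namely HDAC6, HMGB1, KDM2A, KDM3A, KMT5B, SMARCA4 and SMARCA5. The brightest probe set gave the smallest called difference for KDM2A, KDM3A, KMT5B, SMARCA4 and SMARCA5 and one of the largest for HDAC6 and HMGB1. For these 7 genes the choice among called probe sets changed the size of the difference and not its sign.

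**Figure D3:**
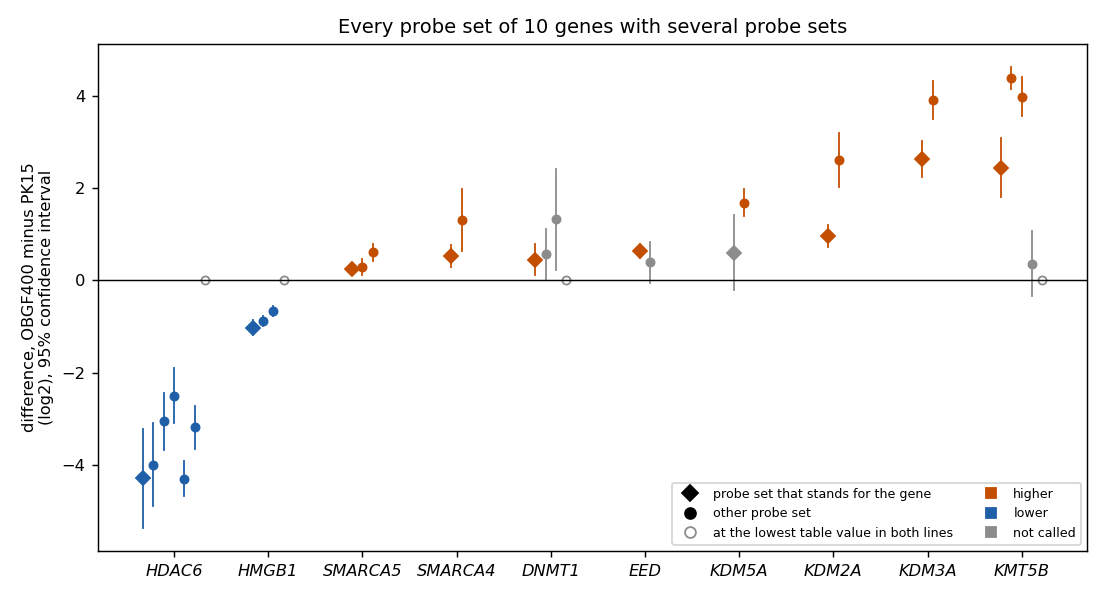
Difference between the lines (log2, y axis) with its 95% confidence interval for every probe set of 10 chromatin genes; diamonds mark the probe set that stands for the gene, open circles those at the floor in both lines, and colours the call over all probe sets. The 6 called HDAC6 probe sets lie between -4.30 and -2.50, and 3 KMT5B probe sets between 2.44 and 4.39.

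Proliferation genes were mostly lower in OBGF400. Of 23 measured proliferation genes, such as TOP2A and CCNB1, 19 were lower in OBGF400, against 36.8% of all genes, and 4 were uncalled. The median difference of the 23 was -3.47. Of the 19, PCNA and RRM1 were positive under hybridization control scaling (0.05 and 0.15). Their summed log2 level was 142.63 to 166.28 over the OBGF400 arrays and 223.10 to 226.50 over the PK15 arrays, and KIF20A alone of them was at the floor in OBGF400. Within OBGF400, replicate 2 had the highest value for 20 of the 23 genes, and replicate 1 the lowest for 21. Among chromatin genes, replicate 2 was highest for 9 of the 16 lower and 5 of the 19 higher genes. Replicate 1 was lowest for 6 of the 16 and 7 of the 19. HMGA1, whose OBGF400 values are identical, has no highest or lowest replicate. Of the 16 lower genes, the 6 genes HMGB1, HMGB2, H2AFZ, HMGN2, EZH2 and SMARCE1 had replicate 2 highest and replicate 1 lowest. HIST1H2BD, HMGN3, KDM4A and SMARCA2, also lower in OBGF400, had their highest value on replicate 1. DNMT1, by contrast, was higher in OBGF400 as deposited. How often replicate 2 is highest or replicate 1 lowest was not counted over all genes or over all lower genes. Whether the lower chromatin genes differ in this order from other genes was therefore not tested. The part of proliferation in the differences of chromatin genes was not tested either.

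**Figure D4:**
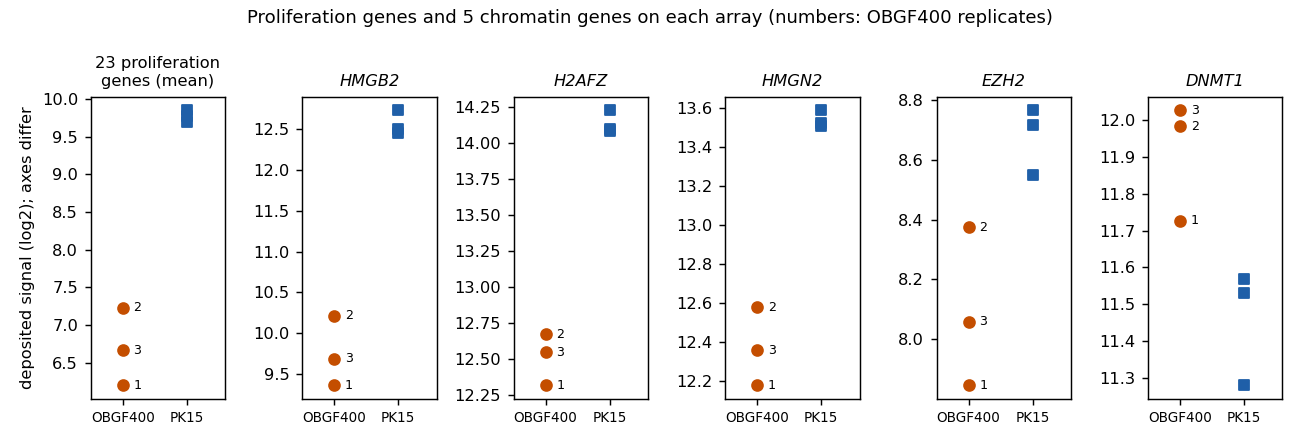
Deposited log2 signal on each array (y axes differ between panels) for the mean of 23 proliferation genes and for HMGB2, H2AFZ, HMGN2, EZH2 and DNMT1, chosen after their values were seen, with orange circles for OBGF400, numbered by replicate, and blue squares for PK15. In the first 5 panels OBGF400 lies below PK15 with replicate 2 on top and replicate 1 at the bottom, and DNMT1 lies above PK15. The lower genes drawn are among the 6 of 16 lower genes with this order, so the panels do not show how common it is.

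A list of 127 other chromatin genes, chosen by function and outside the symbol rule, was near the background of all genes. Of these 33 (26%) were higher in OBGF400, against 23.9% of all genes, 49 (38.6%) lower, against 36.8%, and 45 not called, and the median of the differences was -0.03. Hybridization control scaling turned the split into 83 higher against 13 lower, and poly-A control scaling into 6 against 95. Over all 6765 genes these scalings gave 4487 against 1259 and 763 against 5219. Polycomb partners gave 3 higher and 4 lower of 13, with JARID2, which recruits Polycomb repressive complex 2, at 7.14 ± 0.14 against 4.03 ± 0.69 (SD, n = 3), higher by 3.11. RBBP7, a histone-binding subunit of that complex, was lower by -0.80 and at 0.03 under hybridization control scaling. Acetyltransferase genes gave 2 higher and 8 lower of 14, with the coactivator NCOA2 at -2.51 and EPC1 of the NuA4 complex at 0.85, or -0.00 under poly-A control scaling.

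The further lists stand beside 23.9% higher and 36.8% lower over all genes. Methyltransferase genes outside the rule gave 3 higher and 7 lower of 17, with DPY30, shared by the lysine 4 methyltransferase complexes, at -1.47. SETD3 had the largest rise among them (0.67, and -0.18 under poly-A control scaling). Corepressor subunits gave 2 higher and 6 lower of 12, with ARID4B of the Sin3 complex at 1.57 and the corepressor CTBP2 at -2.04. Remodeller subunits gave 8 higher and 12 lower of 30, with BAZ1B, a partner of SMARCA5, at 2.32 and the small subunit CHRAC1 at -2.55. Readers gave 9 higher and 5 lower of 18, with PHF20 at 3.75 and SP140, known from leukocytes, at -2.16. Of 5 leukocyte markers AIF1, LAPTM5 and SPI1 were higher in PK15, at 10.72, 10.94 and 6.48 there. CD14 was higher in OBGF400 (1.03), and PTPRC was at the floor in both lines. Whether these markers bear on the SP140 difference was not tested. Histone chaperones gave 6 higher and 7 lower of 18, with ASF1B, the replication-linked H3-H4 chaperone, at 3.14 ± 0.23 against 8.25 ± 0.09 (SD, n = 3), lower by -5.11. NAP1L4, an H2A-H2B chaperone, had the largest rise of that list (1.11). The 3 other demethylases and 2 other histone-related genes measured were not called.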

How the data were processed

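Arrays of 3 RNA pools from OBGF400 and 3 from PK15 were compared, with 8 µg of total RNA per pool labelled from the 3′ end, per the labels' protocols. The authors deposited 1 log2 signal per probe set and array, without detection calls. The submitters' processing notes name affy without a version, with background correction and normalization not given in the sources used here. Array means were 5.41 to 5.42. The number of arrays limits the precision. Of 24123 probe sets, 124 controls were left out of the tests. Symbols came from the platform annotation, and the Entrez numbers of 49 of the 51 genes led to the same symbol in RefSeq's Sscrofa11.1 gene table. No sequence or coordinate was used here.

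Differences between the lines were tested in R 4.3.3 with limma 3.58.1 (lmFit, eBayes), over all 6765 genes and over all 23999 probe sets, after a check on simulated data. Tables were made in Python 3.11.15. Within an array, gene pairs of 1 family or complex were subtracted, with pairs chosen after values were seen and so without a test. An exact permutation test of 1 gene could not go below 0.1 in this design. Genes and lists were chosen with earlier results of these data known. Values on every array are given for genes called, not overlapping and at least 2-fold different, and for the brightest uncalled gene of each role. EED, EZH2, DNMT1, KDM5A, SMARCA1, SMARCA2 and SMARCA4 were shown so after their values were seen. In each further list the called gene with the largest rise and fall is named. The 17 alternatives covered normalization, control scaling, dim filters, 32 added to linear values, a trended robust variance, averaging of a gene's probe sets, a threshold of 0.01, a replicate block and each array left out.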

Additional observations from a re-analysis of the deposited data

How the results depend on the processing

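Leaving out 1 array at a time gave 16 to 18 chromatin genes higher in OBGF400, 13 to 14 lower and a median difference of -0.00 to 0.04, with 25 to 33 higher and 42 to 49 lower among the 127 other chromatin genes. Of the 35 called genes, 27 stayed called without any 1 array, and 12 were called with the same sign in every alternative that held them. Over all 6765 genes hybridization control scaling gave 4487 higher and 1259 lower. Among the 51 it gave 36 higher, 7 lower and a median of 0.82, with 83 higher and 13 lower of the other chromatin genes. It turned CBX3 (0.73), CHD4 (0.51), EZH2 (0.24), H2AFY (0.82), HDAC11 (0.82), HMGN3 (0.47), KDM4A (0.55), KDM6A (0.41), SMARCA1 (0.70), SMARCA2 (0.030), SMARCD2 (0.67) and SMARCD3 (0.72), each called before or after, and the uncalled CHD7 (0.27) and DNMT3B (0.30), 14 in all. Poly-A control scaling gave 5 higher, 35 lower and a median of -0.85, and 6 higher and 95 lower of the others. It turned CHD6 (-0.28), CHD8 (-0.46), DNMT1 (-0.40), DNMT3A (-0.85), EED (-0.21), H3F3A (-0.72), HDAC1 (-0.71), HDAC2 (-0.18), HDAC3 (-0.85), HMGN4 (-0.75), KDM1A (-0.58), KDM5C (-0.51), KMT2E (-0.46), SIRT2 (-0.42), SIRT3 (-0.32), SMARCA4 (-0.33), SMARCA5 (-0.61) and SMARCD1 (-0.37), likewise, and the uncalled KDM5A (-0.25), 19 in all. Quantile normalization turned DNMT3A (-0.058) and the uncalled HDAC11 (0.0047). Each control scaling adds 1 constant per array, while the cause under quantile normalization was not tested. With genes above the 25th percentile alone, 47 of the 51 were held and their median was 0.10. With genes above the median alone, 28 were held, and 11 were higher, since fewer genes were tested. Without the control scalings, 657 of 738 values of single genes under an alternative kept their sign and side of the threshold, 55 lost a call, 12 gained one and 1 reversed with a call. A further 13, of the 6 genes CBX3, CHD4, DNMT3A, H2AFY, HDAC11 and HDAC3, changed sign without a call either way. The replicate numbers are not said to pair the pools, and deviations of same-numbered pools correlated at 0.03, -0.01 and 0.02. With the number as a replicate block, 15 chromatin genes were higher and 14 lower: 7 calls were lost and that of KDM1A gained.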

Other observations

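Genes around the histone variant H2AFZ were looked up after its value had been seen. The H2A.Z chaperone ANP32E, which removes the variant from chromatin, averaged 8.45 ± 0.06 on the OBGF400 arrays against 10.89 ± 0.19 on the PK15 arrays (SD, n = 3). The difference was -2.44, and -1.61 under hybridization control scaling. Among subunits of the complexes that insert the variant, EP400 (-1.13), RUVBL1 (-1.09), YEATS4 (-0.95) and RUVBL2 (-0.82) were lower in OBGF400, with RUVBL2 at 0.01 under hybridization control scaling. ZNHIT1 was higher (0.61, and -0.25 under poly-A control scaling), and VPS72 (-0.13) and ACTR6 (0.10) were not called. VPS72 read the identical 7.82 on all arrays but PK15 replicate 2 (8.22). Such a value may be a background reading of the probe set, which was not tested. Other subunits of the EP400 complex went both ways. BRD8 (1.22, and 0.36 under poly-A control scaling), EPC1 (0.85, and -0.00) and ING3 (0.65, and -0.20) were higher. MORF4L1 (-0.83, and -0.00 under hybridization control scaling) and ACTL6A (-0.76, and 0.06) were lower. KAT5 (-0.16) and MEAF6 (-0.04) were not called.

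Subunits of the NuRD complex beside CHD3 and CHD4 were also unequal. MTA2 was at 10.10 ± 0.04 against 9.05 ± 0.23 (SD, n = 3), higher by 1.05 and by 0.19 under poly-A control scaling, while MTA3 (-1.59) and the methyl-CpG reader MBD2 (-1.95) were lower under both control scalings. GATAD2A was not called (-0.07).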
